A study of Mus musculus with 4 samples.

Results

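Aldolases and the enzymes of fructose metabolism were followed through the RNA of Hepa1-6 cells, a line grown from a mouse hepatocellular carcinoma, with and without a knockout of Acvr2a, the gene of a type II receptor for activin. The members were 6 genes picked out by symbol from the 54838 genes listed: Aldoa, Aldoc, Khk, Tkfc, Sord and Slc2a5. The symbol Aldoa stands on 2 entries, so the 6 symbols gave 7 gene entries, of which 5 passed the filter on low counts and were tested. The set was chosen from earlier results of the same KO and NC libraries, so their differences between the groups are given as a description, without a p-value for any member.

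The 4 libraries fall into 2 groups of 2, as their titles and genotype labels give them. NC 1 and NC 2 are Hepa1-6 cells that are wild type for Acvr2a, and KO 1 and KO 2 are Hepa1-6 cells labelled as Acvr2a knockout. All are transcriptomes of total RNA. No treatment is named, and the design text calls the knockout cells subclones without saying how many clones the KO libraries stand for. The labels do not say that the libraries of a group came from separate cultures, so every p-value measures only the spread between these samples.

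Aldolase splits the fructose bisphosphate of glycolysis into a pair of triose phosphates, and mammals make it from several genes. Aldoa is known as the isozyme of muscle and of most growing cells, and Aldoc as the isozyme of brain, where astrocytes hold much of it. Fructose reaches the same trioses by its own route: transporters such as that of Slc2a5 bring it in, or sorbitol dehydrogenase, the product of Sord, makes it from sorbitol inside the cell. Ketohexokinase (Khk) then phosphorylates it, an aldolase splits it, and the triose kinase of Tkfc returns the glyceraldehyde to glycolysis. Healthy liver is known for a high capacity of this route.

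Promoter windows are shown for Aldoc and Khk, the members with the largest differences between the groups, and for Aldoa, the most abundant member. They were searched for the core of the hypoxia response element, ACGTG or GCGTG on either strand, and the E-box CACGTG, which holds ACGTG on both strands. Each window runs from 250 bases before a transcription start to 50 bases after it, from RefSeq on GRCm38.p6, written in the direction of the gene. Capitals mark the matches, and CACGT and CACGC are the 2 cores read on the other strand. The windows are Aldoc at chr11:78322823-78323122 on the plus strand, Khk at chr5:30921309-30921608 on the plus strand and Aldoa at chr7:126799129-126799428 on the minus strand.
Aldoc: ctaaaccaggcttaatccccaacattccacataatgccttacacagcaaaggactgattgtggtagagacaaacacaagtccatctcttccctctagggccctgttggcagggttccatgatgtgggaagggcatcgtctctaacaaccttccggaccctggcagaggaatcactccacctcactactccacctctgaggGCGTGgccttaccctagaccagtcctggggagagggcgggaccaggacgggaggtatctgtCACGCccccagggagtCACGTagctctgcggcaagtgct
Khk: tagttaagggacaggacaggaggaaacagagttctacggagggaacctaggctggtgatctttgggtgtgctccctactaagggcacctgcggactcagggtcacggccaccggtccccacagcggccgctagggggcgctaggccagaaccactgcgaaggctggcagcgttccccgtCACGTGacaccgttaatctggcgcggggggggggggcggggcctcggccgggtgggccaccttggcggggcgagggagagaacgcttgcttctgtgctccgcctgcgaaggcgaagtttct
Aldoa: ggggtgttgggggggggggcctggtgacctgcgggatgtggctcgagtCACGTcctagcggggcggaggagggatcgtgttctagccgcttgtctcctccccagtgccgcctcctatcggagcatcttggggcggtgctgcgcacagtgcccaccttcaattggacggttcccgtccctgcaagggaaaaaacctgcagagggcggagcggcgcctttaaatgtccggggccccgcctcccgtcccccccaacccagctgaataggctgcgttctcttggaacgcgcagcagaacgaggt

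The Aldoc window held 3 cores, at 50 bases upstream of the start and at 11 and 27 bases downstream of it. Of 32851 promoter windows of the same length, 8.93% held at least 3 and 43.8% held at least 1. The Khk window held 1 E-box, 71 bases upstream of the start, a word found in 7.15% of all windows. The Aldoa window held 1 core, 202 bases upstream. All 6 members had an entry, with 9 windows in all, since Aldoa has 3 starts and Aldoc 2. The second Aldoc window and the window of Tkfc held 1 core each, the windows of Sord and Slc2a5 held none, and the Aldoa windows held 1, 1 and none. The Aldoa windows with a core overlap, and their core is the same site. A match is a description of the letters only, and no binding was measured.

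Library totals lay between 11597923 and 13910582 counts. After the filter, 12510 genes entered the quasi-likelihood test of edgeR, and 37.9% of them passed an adjusted p of 0.05, 19.7% higher and 18.2% lower in KO. The targeted gene did not tell the labels apart: Acvr2a had 81 and 108 counts in the NC libraries and 75 and 97 in those labelled KO, with a log2 difference of -0.21 (edgeR SE 0.20, adjusted p = 0.433), and the group names follow the labels. Of 12 hepatocyte and hepatoma markers, 8 reached a TPM of 1 in every library (TPM is a length-corrected share of the library's transcripts), with Alb leading. The other 4, Ttr, Apoh, Ahsg and Serpina1a, were under 1 TPM in every library. The list summed to 1164 and 1106 TPM in NC and 1370 and 1405 TPM in KO, but its genes passed the threshold in both directions. Alb (log2 fold change 0.41, SE 0.10) and Trf (0.54, SE 0.091) were higher in KO, and Afp (-1.21, SE 0.093), Hnf4a (-0.995, SE 0.093) and Fgb (-0.75, SE 0.13) were lower. The part of these changes in the values of the members was not tested.

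All 5 tested members passed the threshold, 4 higher and 1 lower in KO. The count was 3 with DESeq2, where Khk and Tkfc missed the threshold, 2 in limma fits of filtered TPM and 3 without NC 2, where Aldoa and Tkfc missed it. It was 4 without KO 1 and without KO 2, where Khk and Tkfc, in turn, missed it, and no direction changed. The 5 of the main edgeR fit stand beside the 37.9% of all 12510 genes tested that passed in that fit. Of the same 12510, DESeq2 called 3217 and the filtered TPM fits 2158 and 2099. Since the members were picked on this contrast, nothing is read from any of these counts. The 2 groups did not overlap in scaled counts for any of the 5, as was the case for 69.4% of all genes tested. Per length, in TPM, the order of the members was Aldoa, Sord, Aldoc, Tkfc, Khk and Slc2a5 in every library. In KO, Tkfc at 11.2 and 11.8 TPM and Khk at 10.1 and 8.48 TPM lay no further apart in KO 1 than the KO libraries of Khk did from each other. All other neighbours in that order differed by more than their libraries did within a group.

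**Figure D1:**
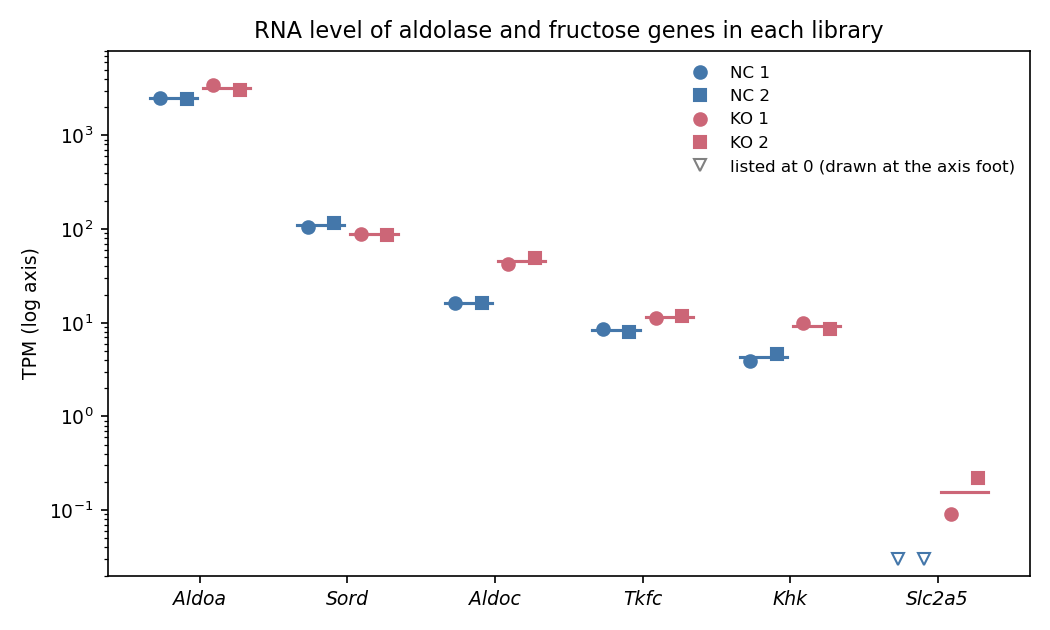
Level of the 6 members in each library, in TPM on a log axis, with NC in blue and KO in red, circles for replicate 1, squares for replicate 2 and a line at each group's mean. Aldoc lies at 16.1 and 16.3 TPM in NC and 42.4 and 49.15 TPM in KO, Sord is the member that lies lower in KO, and Slc2a5 is listed at 0 in both NC libraries.

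Aldoc showed the largest log2 difference of the 5 tested members. This gene (ENSMUSG00000017390.15) lies at chr11:78322968-78327781 on the plus strand of GRCm38, with 9 merged exons. It had 285 and 304 counts in NC 1 and NC 2 and 803 and 959 counts in KO 1 and KO 2. Both KO libraries lay well above both NC libraries. In TPM the level was 16.2 ± 0.127 in NC and 45.8 ± 4.80 in KO (SD, n = 2). The log2 fold change of scaled counts was 1.49 (SE 0.11, 95% interval 1.26 to 1.72), or 2.81-fold. The NC libraries stood 0.19 apart on the log2 scale and the KO libraries 0.22, while the closest libraries of different groups stood 1.28 apart. None of the 3354 distinct 50-base windows of its transcripts occurs in a transcript of another gene, so its reads need not be shared with a copy.

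Aldoa, the aldolase that made up nearly all of the RNA of the pair, was also higher in KO, by a smaller factor. The main entry (ENSMUSG00000030695.16) lies at chr7:126795234-126800751 on the minus strand, with 12 merged exons. It had 33907 and 37771 counts in NC, against 48595 and 46319 in KO. Per length this was 2528 and 2435 TPM in NC and 3419 and 3041 TPM in KO, which placed it between the 37th and the 53rd most abundant gene of a library. The log2 fold change was 0.32 (SE 0.098, 95% interval 0.12 to 0.52), or 1.25-fold. The NC libraries differed by 0.13 and the KO libraries by 0.11, against a gap of 0.20 between the closest libraries of the groups.

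Near-copies of Aldoa were almost without counts. Of its 50-base windows, 5.13% occur in transcripts of other genes, the retrogene Aldoart1 and pseudogenes. The files hold 8 aldolase A-like retrogenes and pseudogenes, and none had more than 1 count in a library. The second Aldoa entry (ENSMUSG00000114515.2), at chr7:126800790-126809108, had 12 and 3 counts in NC, against 5 and 5 in KO, with overlapping groups, and was not tested. Exons of Aldoa overlap those of Fam57b on the other strand, which had 0 and 2 counts in NC, against 3 and 0 in KO. The coding parts of Aldoa-203 and Aldoc-202, aligned by codon, had the same base at 75.7% of 1089 positions.

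Within each library, Aldoc made up a larger share of the pair in KO. Aldoc was 0.633% and 0.665% of the summed TPM of Aldoa and Aldoc in NC 1 and NC 2, and 1.22% and 1.59% in KO 1 and KO 2. The NC libraries lay close together and the KO libraries apart from each other, with both above NC. The means were 0.649% ± 0.022 in NC and 1.41% ± 0.26 in KO (SD, n = 2), a 2.17-fold difference that does not depend on the scaling between libraries. Aldoa thus went from 157 and 149 times the Aldoc level to 80.7 and 61.9 times.

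By counts, which are not per length, the Aldoc share was 0.834% (exact Clopper-Pearson 95% interval 0.740 to 0.936) in NC 1 and 0.798% (0.711 to 0.893) in NC 2. It was 1.63% (1.52 to 1.74) in KO 1 and 2.03% (1.90 to 2.16) in KO 2. The intervals of the NC libraries overlap, those of the 2 KO libraries do not, and no KO interval reaches an NC interval. They cover counting error only. The log2 ratio of Aldoc to Aldoa in TPM was higher in KO by 1.12, with an SD of 0.050 in NC and 0.27 in KO. With 2 libraries against 2, an exact two-sided permutation test cannot give a p under 0.333, so the ratio is a description. The sum of both genes was 2544 and 2451 TPM in NC and 3462 and 3090 TPM in KO.

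**Figure D2:**
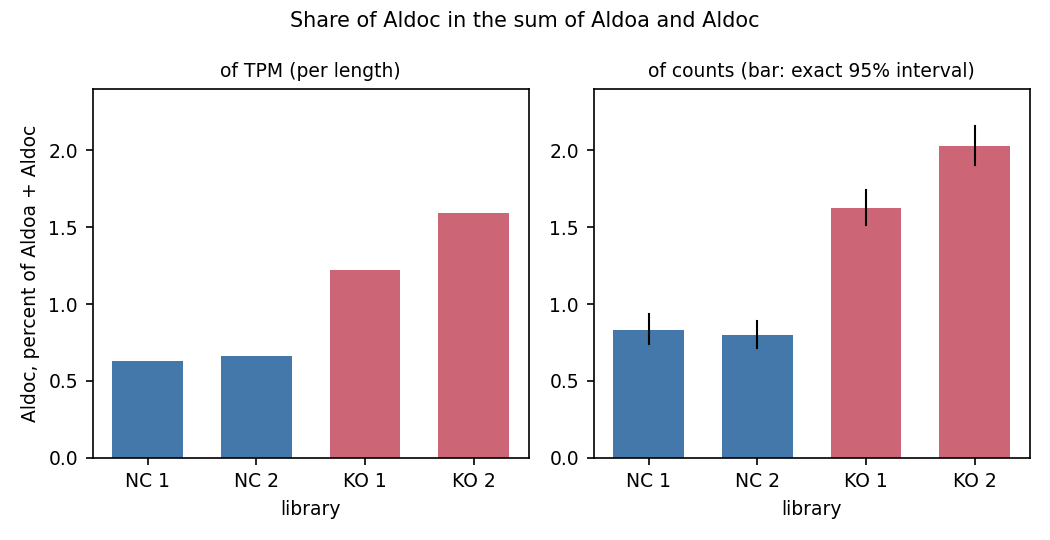
Share of Aldoc in the sum of Aldoa and Aldoc in each library, in percent, from TPM on the left and from counts with exact 95% intervals on the right. The bars of NC lie at 0.633 and 0.665% of TPM and those of KO at 1.22 and 1.59%, so Aldoa made up at least 98.4% of the pair in every library.

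The gene tables also hold the mean length of each gene's transcripts, weighted by their estimated abundance, on which the length-scaled TPM values also draw. For Aldoa it was 1493 to 1494 bases in all libraries, close to the full-length transcripts of 1460 to 1549 bases and far from its shorter models. For Aldoc it was 1894 and 1748 bases in NC and 1910 and 1845 bases in KO, and the groups overlapped. Those lengths lie between the protein-coding transcripts Aldoc-202, of 1700 bases, and Aldoc-201, of 2786 bases. They require that at least 17.9% and 4.42% of the estimated Aldoc molecules in NC, and 19.3% and 13.3% in KO, were of the longer form. The larger amount of Aldoc RNA in KO was thus not accompanied by a separate range of mean lengths.

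Khk, the first enzyme of fructose breakdown, was a low-count gene and higher in KO. It (ENSMUSG00000029162.15) lies at chr5:30921431-30931248 on the plus strand, with 8 merged exons. It had 18 and 28 counts in NC, against 57 and 49 in KO, or 3.90 and 4.63 TPM against 10.1 and 8.48 TPM. At 18 to 57 counts per library the log2 fold change was 1.13 with a wide 95% interval of 0.47 to 1.79 (SE 0.32). The NC libraries stood 0.35 apart and the KO libraries 0.25, and the groups were separated by 0.84.

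By the authors' transcript estimates, the longer transcripts were the minority of Khk RNA. The mean Khk length was 670 and 731 bases in NC and 742 and 716 bases in KO, with overlapping groups. The longer annotated coding transcripts have 1087, 1257 and 1583 bases, beside a 789-base coding model and a retained-intron transcript of 544 bases. At most 23.3% and 34.4% of the estimated Khk molecules in NC, and 36.5% and 31.8% in KO, can have come from transcripts of 1087 bases or more. Every mean also lay below the 789-base coding model, so part of the estimated molecules in each library were of the retained-intron transcript. The Khk values therefore count RNA of the gene, not of its coding transcripts alone.

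**Figure D3:**
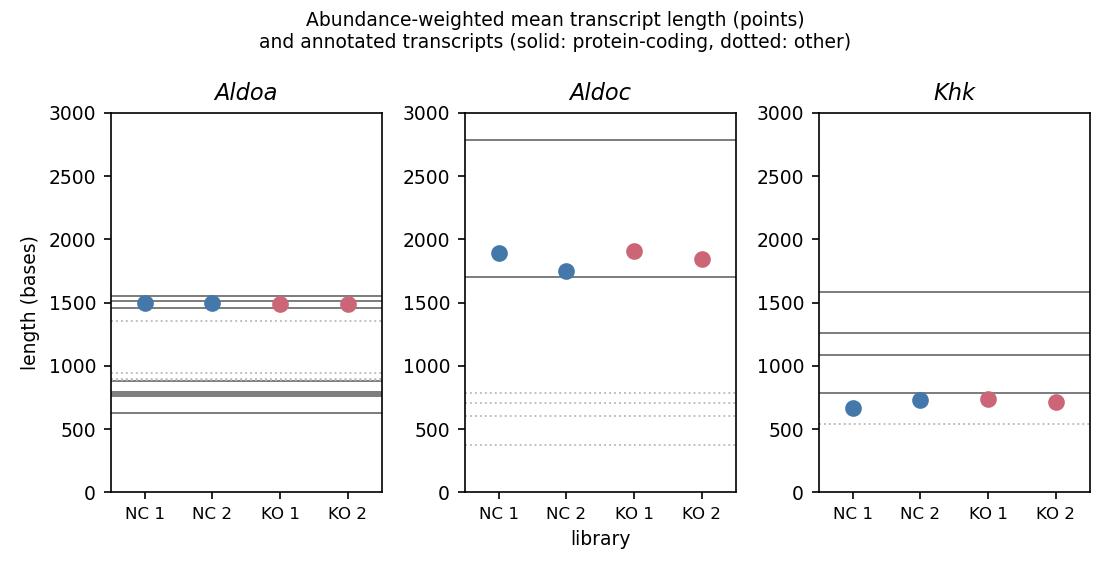
Abundance-weighted mean transcript length of Aldoa, Aldoc and Khk in each library, in bases, with solid lines at annotated protein-coding transcripts and dotted lines at others. Khk points lie at 670 to 742 bases, below every coding transcript, and the NC and KO points of Aldoc and of Khk overlap.

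Tkfc, whose triose kinase acts on the glyceraldehyde that fructose yields, was moderately higher in KO. It had 186 and 199 counts in NC, against 257 and 288 in KO, or 8.64 and 7.98 TPM against 11.2 and 11.8 TPM. Its log2 fold change was 0.41 (SE 0.14, 95% interval 0.13 to 0.70), with library gaps of 0.19 and 0.13 within groups and 0.25 between them. The tables list Tkfc (ENSMUSG00000034371.8) with 1 transcript of 2253 bases. In the annotation used here the gene has version 9 and lies at chr19:10587791-10605654 on the minus strand, where its exons overlap those of Cyb561a3 and Ddb1 on the other strand, and 15.0% of its 50-base windows occur in their transcripts.

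Both neighbours of Tkfc were measured. Cyb561a3 had 71 and 80 counts in NC, against 95 and 102 in KO, a log2 change of 0.30 with an SE of 0.20 (edgeR adjusted p = 0.258). Ddb1 had 10720 and 13772 counts in NC, against 12473 and 12680 in KO, a log2 change of -0.04 with an SE of 0.093 (edgeR adjusted p = 0.776). Whether reads of either were counted as Tkfc was not tested.

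Sord was the tested member with the opposite direction. Its product turns sorbitol into fructose, the last step of the polyol pathway. It (ENSMUSG00000027227.7) lies at chr2:122234749-122265340 on the plus strand and had 2359 and 3019 counts in NC, against 2119 and 2231 in KO. In TPM it was 104 and 115 in NC and 88.3 and 86.8 in KO. The log2 fold change was -0.38 (SE 0.090, 95% interval -0.57 to -0.20), with library gaps of 0.07 and 0.04 within groups and 0.33 between them. The pseudogene Gm6652 holds 31.3% of the 50-base windows of Sord and was assigned 12.3 and 21.5 counts in NC, against 24.4 and 19.4 in KO, while Sord itself had 2119 to 3019.

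Slc2a5, the gene of the fructose transporter GLUT5, was barely detected. It (ENSMUSG00000028976.10, chr4:150119283-150144169, plus strand) was without a count in NC 1 and NC 2 and had 3 and 2 counts in KO. A count of 0 allows up to 3 counts in a library, so no difference was detectable at this depth and no fold is given.

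The other genes of the pathway came from 7 lists with 46 genes that are not members. Of these, 35 were tested and 21 passed the threshold in the main edgeR fit, 15 higher and 6 lower in KO. Of all genes tested, 37.9% passed in that fit, 19.7% higher and 18.2% lower. DESeq2 passed 15 of the 35, and 3217 of all 12510 genes tested. Both filtered TPM fits passed 13 of the 35, and 2158 or 2099 of the 12510. In the edgeR fit the median log2 fold change of the 35 was 0.16, against -0.0037 for all genes tested. The lists were chosen with earlier results of these data known, so nothing is read from the counts and medians of the lists. Exons of 18 of the 46 overlap another gene, among them Pfkp, Pfkm, Gapdh, Gpi1, Hk1, Mlx, Mlxipl, Elovl6, Txnip and Akr1b7, and their values may include reads of it.

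In the polyol pathway, Akr1b3, the aldose reductase that makes sorbitol from glucose, fell, and Sord was lower as well. It had 2966 and 3340 counts in NC, against 2637 and 2559 in KO, a log2 change of -0.37 with an SE of 0.091 (edgeR adjusted p = 0.00232). Of its relatives, Akr1b10 rose by 0.40 (SE 0.12, adjusted p = 0.0102) and Akr1b7, at 9 to 35 counts, rose by 1.44 (SE 0.45, adjusted p = 0.0107). Akr1b8 gave 0.04 (SE 0.092, adjusted p = 0.747). Of the 50-base windows of Akr1b7, 15.8% occur in other genes, among them Gm13857, which overlaps it on the other strand, Akr1b10 and Akr1b8. These are 195 windows, while Akr1b8 and Akr1b10 each share only 42 with all other genes, so most of the 195 lie in neither relative. Of the 50-base windows of Akr1b3, 13.6% occur in other genes, Gm38056 and Gm6644 among them. Whether reads of Akr1b7 or Akr1b3 were shared with any of these genes was not tested. Akr1b10 and Akr1b7 both missed the threshold with DESeq2. Akr1b10 also missed it without NC 2 (0.29), and Akr1b7 without NC 2 (1.16) and without KO 2 (1.12). Of the 4 genes of this list other than Sord, 3 passed in the main edgeR fit, 2 higher and 1 lower, beside 37.9% of all genes tested.

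Among the fructose transporters, Slc2a8 rose and the classical ones were near 0. Slc2a8, which encodes an intracellular hexose transporter, had 168 and 176 counts in NC, against 318 and 386 in KO, a log2 change of 0.94 (SE 0.14, edgeR adjusted p = 7.48e-06). Slc2a9 gave 0.17 (SE 0.30, adjusted p = 0.685 by edgeR), with overlapping groups. Slc2a2 had 1 count and Slc2a7 had 1 count over all libraries together. Akr1a1, an aldehyde reductase that can act on glyceraldehyde, gave -0.20 (SE 0.092, edgeR adjusted p = 0.0873), and the glycerate kinase gene Glyctk gave -0.09 (SE 0.49, adjusted p = 0.903). The retrogenes Aldoart1 and Aldoart2 had no count in any library.

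Around the aldolase step, 6 of 10 tested genes passed in the main edgeR fit, 3 in each direction, beside 37.9% of all genes tested. Those that rose were the phosphofructokinases Pfkp (log2 fold change 1.08, SE 0.099) and Pfkm (0.53, SE 0.10), and Gapdh (0.43, SE 0.10), a gene with many processed copies. The third phosphofructokinase, Pfkl, gave 0.16 (SE 0.092, adjusted p = 0.161 by edgeR), and triose phosphate isomerase, Tpi1, also gave 0.16 (SE 0.095, adjusted p = 0.175). Those that fell were Taldo1 (-0.32, SE 0.099) and Tkt (-0.26, SE 0.095) of the pentose phosphate pathway and Gpd1l (-0.33, SE 0.105), a glycerol phosphate dehydrogenase. Gpd1l missed the threshold with DESeq2, and Taldo1, Tkt, Gpd1l and Gapdh missed it in both filtered TPM fits. Without KO 2 all of those that fell missed the threshold, with Taldo1 at -0.18 (edgeR adjusted p = 0.204), Tkt at -0.15 (adjusted p = 0.293) and Gpd1l at -0.30 (adjusted p = 0.0700), and they missed it without NC 1 as well, Tkt also without NC 2. The fructose bisphosphatases Fbp1 and Fbp2, which act against phosphofructokinase in gluconeogenesis, had no count in any library.

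Of 5 tested genes that phosphorylate or isomerise hexoses, 4 rose and none fell in the main edgeR fit. Of all genes tested, 19.7% were called higher and 18.2% lower in that fit. Gpi1, the glucose phosphate isomerase, rose by 0.43 (SE 0.093), and the hexokinases Hk1 and Hk2 by 0.39 (SE 0.091) and 0.36 (SE 0.099). Hkdc1, at 13 to 47 counts, rose by 1.06 (SE 0.35, adjusted p = 0.0165 by edgeR). Hk2 missed the threshold without NC 1 (0.27) or KO 1 (0.25), and Hkdc1 without NC 1 (0.73), KO 1 (0.98) or KO 2 (1.14). Both also missed it in the filtered TPM fits, and Hkdc1 with DESeq2. Mannose phosphate isomerase, Mpi, gave 0.07 (SE 0.13, adjusted p = 0.716).

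**Figure D4:**
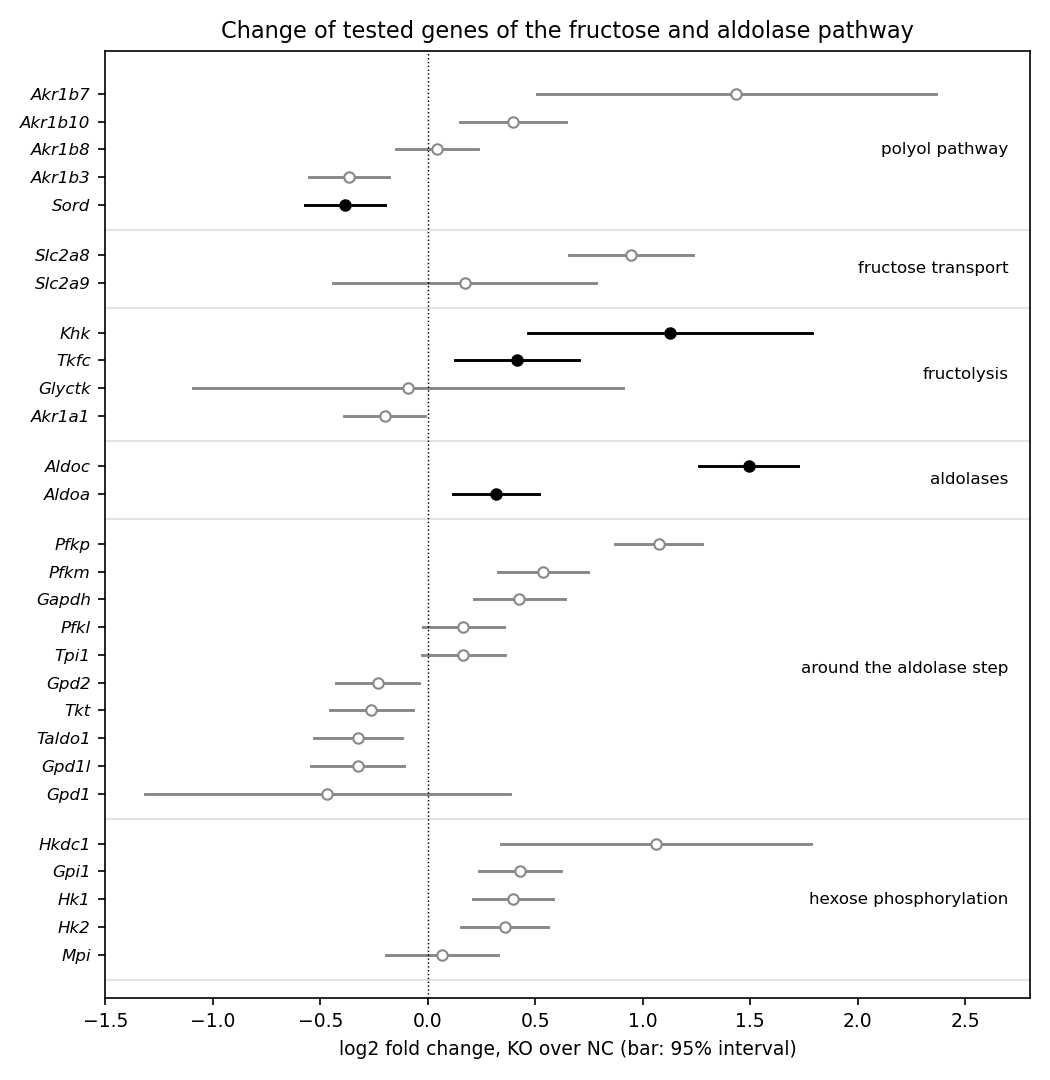
Log2 fold change of KO over NC with its 95% interval for the tested genes of 6 of the lists, filled points for members and open points for the others. Aldoc at 1.49 and Khk at 1.13 lie to the right, Sord at -0.38 and Akr1b3 at -0.37 to the left of 0.

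Genes of ChREBP, the sugar-responsive transcription factor known to act on Khk and other fructose genes in liver, were the last list. Its own gene Mlxipl had 65 and 71 counts in NC, against 372 and 419 in KO, a log2 fold change of 2.45 (SE 0.16). The thioredoxin-binding Txnip rose by 2.47 (SE 0.105), its relative Arrdc4 by 0.97 (SE 0.10) and Klf10 by 1.08 (SE 0.097). The fatty acid elongase gene Elovl6 fell, with a log2 fold change of -0.59 (SE 0.099). Pyruvate kinase (Pklr) and the lipogenic genes Acly, Acaca, Fasn and Scd1 missed the threshold, with values from -0.20 to 0.13. The partner gene Mlx had -0.34 (SE 0.11) and missed the threshold without NC 2 (-0.33) or KO 2 (-0.26). Mlxip, the gene of a ChREBP relative, rose by 0.30 (SE 0.0999) and missed it without NC 1 (0.19) or KO 2 (0.23). Mlx and Mlxip also missed it with DESeq2 and in both filtered TPM fits. Of 12 genes tested, 5 rose and 2 fell in the main edgeR fit, with a median of 0.07. Of all genes tested, 19.7% were called higher and 18.2% lower in that fit.

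By profile over the 4 libraries, the genes most like Aldoc were Arhgap29, Tent5b, Selenbp1, Plppr2 and Gli1. Their log2 CPM (counts scaled by the size of the library), centred on its mean, differed from that of Aldoc by a root mean square of 0.037 to 0.065, among 9911 genes compared. Arhgap29, the closest, had 11.3 and 10.7 CPM in NC and 28.7 and 33.1 CPM in KO. The genes most like Aldoa were Fam98c, Fibp, Ptp4a3, Pheta1 and Phkg2, at 0.012 to 0.019. With 2 libraries in each group, such a profile is set mainly by the difference between KO and NC, on which the members were picked. The log2 fold changes were 1.39 to 1.61 for the genes like Aldoc and 0.29 to 0.34 for those like Aldoa. The likeness is a description, and no link between these genes was tested.

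Aldoc is known from astrocytes and Aldoa from muscle, so markers of other cell types were set beside them. Of 8 astrocyte markers, Aqp4, Fabp7 and Slc1a3 had no count and Gfap had 1 count over all libraries. The astrocyte list summed to 2.04 and 3.35 TPM in NC and 5.19 and 4.63 TPM in KO, with Gja1 higher in KO by 1.52 (SE 0.34) and Aldh1l1 by 1.12 (SE 0.29) on the log2 scale. Slc1a2 did not move with them: it had 10 and 45 counts in NC, against 30 and 26 in KO, a log2 change of -0.02 (SE 0.42). S100b had 1 and 0 counts in NC, against 3 and 1 in KO. The muscle list summed to 2.75 and 3.67 TPM in NC and 3.73 and 6.33 TPM in KO, so KO 1 lay barely above NC 2. In KO 2, Mylpf alone gave 5.29 TPM from 7 counts, and it had 6 and 5 counts in NC, against 4 and 7 in KO. Acta1, the only muscle marker tested, had 7 and 13 counts in NC, against 13 and 4 in KO, a log2 change of -0.30 (SE 0.59). Ckm had 2 and 3 counts in NC, against 2 and 3 in KO, and Myog was without a count. The leukocyte list summed to 24.6 and 28.2 TPM in NC and 56.7 and 68.5 TPM in KO. Nearly all of it was Cd68, which moved by 1.20 (SE 0.12), while Cd3e had no count and the leukocyte marker Ptprc had 0 and 1 counts in NC, against 2 and 2 in KO.

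Fibroblast markers were led by Dcn alone, at 1032 to 1234 TPM, with Lum at 0. Col1a1, at 6 and 5 counts in NC, against 38 and 41 in KO, was higher in KO by 2.73 (SE 0.51). Gut and kidney epithelium markers were led by Vil1 alone, at 82.4 to 91.5 TPM. Endothelial markers summed to under 0.5 TPM in every library, with Cdh5 and Tek at 0. The part of the muscle list, Cd68, Gja1, Aldh1l1 and Col1a1 in the values of the members was not tested. In bulk RNA, fewer cells of a type and less RNA per cell cannot be told apart.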

How the data were processed

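RNA-seq of 4 Hepa1-6 libraries was analysed from gene tables, 1 per library. The submitters' processing notes name FastQC, STAR, RSEM and DESeq2 and the builds GRCm38 and mm10. The annotation release, the versions and the strand setting of the counting are not given in the sources used here; per the labels' protocols the library kit was directional. The deposited expected counts are estimated reads per gene, which share reads between similar genes. The deposited TPM and FPKM values are scaled for length by the authors, and FPKM entered only as an alternative in the isozyme shares. The deposited length column, per the file headers, is a gene's mean transcript length in that library.

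Expected counts were rounded, genes were kept by filterByExpr (12510 of 54838), and TMM factors were 0.981 to 1.02. The groups were compared with edgeR 4.0.16 (quasi-likelihood, R 4.3.3), with Benjamini-Hochberg adjustment over all genes tested and a threshold of 0.05. Standard errors used the model's fitted weights with its moderated quasi-dispersion (prior degrees of freedom 25.8). CPM values used TMM-scaled totals. DESeq2 1.42.0, limma 3.58.1 on log2(TPM + 1) and log2(TPM + 0.1), other scalings and filters, a replicate block and leaving out each library were alternatives. The edgeR code was also run on counts simulated with the same dispersion for every gene and few changed genes. That setting is simpler than these data, and nothing is read from it about the fit to them. Coordinates, transcripts and overlaps are from GENCODE M21 (GRCm38), and promoters from RefSeq.

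The members and lists were chosen with earlier results of these data known. Lists were written from general knowledge. Named were all members, every gene of the polyol, transporter, fructolysis and aldolase lists, up to 6 genes of each other list with the lowest p past the threshold, and the 5 genes most like Aldoc and Aldoa whose mean log2 CPM reached 2; other genes were named after their values were seen. Pathway genes were left out of that likeness. The result for 1 gene of the lists is not reported here.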

Additional observations from a re-analysis of the deposited data

How the results depend on the processing

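The count of 4741 genes past the threshold was 2158 (1467 higher) by limma on log2(TPM + 1), 2099 (1427 higher) on log2(TPM + 0.1) and 0 on log2(TPM + 1) without a filter, where 4506 genes had an unadjusted p under 0.05. The share of higher calls was thus larger in the filtered TPM fits than the 2459 of 4741 of the edgeR fit. DESeq2 called 3217 genes. Leaving out 1 library each gave 3507 to 4488 genes, with the lone library assumed to vary like the other group. The 5 members past the threshold became 3 with DESeq2, where Khk and Tkfc missed it, 2 in both filtered TPM fits, where only Aldoc and Khk passed, and 0 without a filter on TPM, where 4 had an unadjusted p under 0.05. Leaving out 1 library each left 3 to 5 members: Aldoa and Tkfc missed the threshold without NC 2, Khk without KO 1 and Tkfc without KO 2. The 21 other pathway genes became 13 in both filtered TPM fits and 0 in the unfiltered one, and 14 to 20 without 1 library. The unfiltered TPM fit tests many genes near 0. Over 21 pathway genes and 12 alternatives, 190 of 252 values kept the call, 62 lost it and 0 reversed. The difference in Aldoc share between KO and NC, 0.758 percentage points by TPM, was 1.01 by expected counts, which do not divide by length, and 0.575 to 0.941 without 1 library. Same-numbered libraries did not deviate together (r = -0.022 over 12510 genes), but this cannot show whether the samples were made in pairs. With the replicate number as a block, 5006 genes, 5 members and 21 other pathway genes passed. Khk with 18 to 57 counts and Slc2a5 with at most 3 are the members that depth limits.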
